A study of Mus musculus with 36 samples.

Results

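The comparison described here is that of electrically stimulated and unstimulated C2C12 myotubes 180 min after electrical pulse stimulation (EPS), 6 of the 36 samples in a 4 h time course. The members are the samples that label and time point define, 3 control and 3 EPS, with no measured value in the rule, each group carrying replicate numbers 1 to 3. C2C12 is an established mouse myoblast line that fuses into contractile myotubes when serum is lowered, and all 6 samples were differentiated in this way. EPS-treated cultures were paced through carbon electrodes in the dish, whereas controls were not paced. The cells represent a single line grown without nerve, vessel or load. The data hold cytosine methylation at 3 genes and no expression of a muscle marker, so the identity of the cells rests on their label.

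Cytosine methylation at CpG-rich promoters is usually low in genes that a cell can express, and gain of methylation there is often accompanied by silencing. Nr4a3 encodes an orphan nuclear receptor that is induced rapidly by muscle contraction and by cAMP signalling. Ppard encodes the fatty acid-sensing nuclear receptor PPARδ, which drives genes of oxidative metabolism in muscle. Ccnd1 encodes cyclin D1, the partner of CDK4 and CDK6 that carries cells from G1 into S phase. Bisulfite treatment converts unmodified cytosine, while 5-methylcytosine and 5-hydroxymethylcytosine both resist it, so the 2 marks are counted together.

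Methylation was given in percent for 171 listed cytosines, of which 117 had a value in each of the 36 samples. Runs of listed cytosines with no gap over 200 bp formed 6 blocks. Below, positions are in GRCm38 (mm10) and distances are those listed, genome coordinate minus transcription start site (TSS), so that positive distances at Ccnd1, a gene of the minus strand, lie upstream of it. The Nr4a3 blocks are a distal block at chr4:48042827-48043103 (38 cytosines with complete values, -2326 to -2050 bp) and a proximal block at chr4:48044893-48045108 (23 listed cytosines, none complete, -260 to -45 bp). The Ppard upstream cytosines lie at chr17:28232454-28232627 (12 complete cytosines, -300 to -127 bp), and the Ppard intron block lies at chr17:28233460-28233606 (8 cytosines, 706 to 852 bp). The Ccnd1 blocks are a near block at chr7:144940258-144940435 (16 cytosines, 389 to 566 bp) and a far block at chr7:144941129-144941512 (43 cytosines, 1260 to 1643 bp). The annotation places the Ppard intron block in an intron, and it lists no gene at the Nr4a3, Ccnd1 and Ppard upstream positions.

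The reference sequences of the stretches on which the results turn are printed 5′ to 3′ on the strand of the gene, with the listed cytosines in capitals. The distal and proximal Nr4a3 sequences show how densely the cytosines lie in stretches at low or listed zero methylation, the Ppard sequence covers the change from higher to lower methylation toward the gene, and the Ccnd1 sequences cover the near block and the part of the far block that holds the GC boxes.
Nr4a3 distal: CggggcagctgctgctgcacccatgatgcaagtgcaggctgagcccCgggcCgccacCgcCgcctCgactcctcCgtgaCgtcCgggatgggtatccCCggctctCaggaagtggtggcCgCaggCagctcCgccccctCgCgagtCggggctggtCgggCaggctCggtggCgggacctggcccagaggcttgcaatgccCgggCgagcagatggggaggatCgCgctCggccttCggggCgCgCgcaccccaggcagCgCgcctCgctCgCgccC
Nr4a3 proximal: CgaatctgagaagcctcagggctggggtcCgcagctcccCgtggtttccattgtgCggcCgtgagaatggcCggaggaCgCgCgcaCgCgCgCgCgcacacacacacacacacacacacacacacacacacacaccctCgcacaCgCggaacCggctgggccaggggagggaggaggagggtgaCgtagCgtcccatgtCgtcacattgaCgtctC
Ppard upstream: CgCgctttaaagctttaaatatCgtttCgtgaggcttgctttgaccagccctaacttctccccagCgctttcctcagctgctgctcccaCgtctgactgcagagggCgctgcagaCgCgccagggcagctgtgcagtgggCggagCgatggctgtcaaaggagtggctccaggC
Ccnd1 near: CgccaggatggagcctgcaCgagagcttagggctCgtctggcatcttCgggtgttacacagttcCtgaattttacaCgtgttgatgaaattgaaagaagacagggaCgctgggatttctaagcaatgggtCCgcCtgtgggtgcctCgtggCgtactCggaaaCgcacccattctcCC
Ccnd1 far, GC boxes: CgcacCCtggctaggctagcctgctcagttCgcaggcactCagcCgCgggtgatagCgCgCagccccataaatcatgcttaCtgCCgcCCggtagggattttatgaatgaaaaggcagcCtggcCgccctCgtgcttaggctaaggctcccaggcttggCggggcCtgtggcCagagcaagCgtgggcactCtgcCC
The last of these runs from 144941316 to 144941512 on chromosome 7. The distal Nr4a3 sequence has 74.7% G and C with 32 CpG in 277 bases, against 59.8% and 11 CpG in 174 bases at Ppard and 54.5% and 11 CpG in 178 bases at the near Ccnd1 block.

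Read depth was not analysed here, since the values carry none, and the counting error of a percent value is unknown. Between 139 and 171 of the listed cytosines had a value in each of the 6 samples. Mean methylation over the 117 complete cytosines was 2.73%, 2.16% and 2.28% in control replicates 1 to 3 and 2.43%, 2.85% and 2.21% in EPS replicates 1 to 3. Neighbouring cytosines carried nearly the same information, with a median correlation of 0.994 over 112 neighbour pairs across the 6 samples, so cytosines were not treated as replicates. The 117 cytosines are 87 CpG, 28 CHG and 2 CHH positions (H is A, C or T). Values at the non-CpG positions followed those of their CpG neighbours: all 28 that lie between CpG positions were within 10% of the straight line joining the neighbours as means of the 6 samples, at levels of up to 13.3%. No smoothing step is given in the sources used here, and a value at a single cytosine, motif positions included, cannot be taken as measured from that cytosine alone.

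At 180 min the EPS and control values could not be separated at any block. The 3 EPS and 3 control values overlapped in all 5 blocks with complete values. Block differences ranged from -0.056 percentage points at the near Ccnd1 block to 0.545 points at the Ppard upstream block, and p in the two-sided exact permutation test lay between 0.6 and 1. With 3 against 3 samples this test has 10 distinct splits and cannot go below 0.1. A limma model of block means over all 36 samples, on the scale log2(beta/(1 - beta)) where beta is the methylated fraction, gave an adjusted p of 0.992 for each block.

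**Figure D1:**
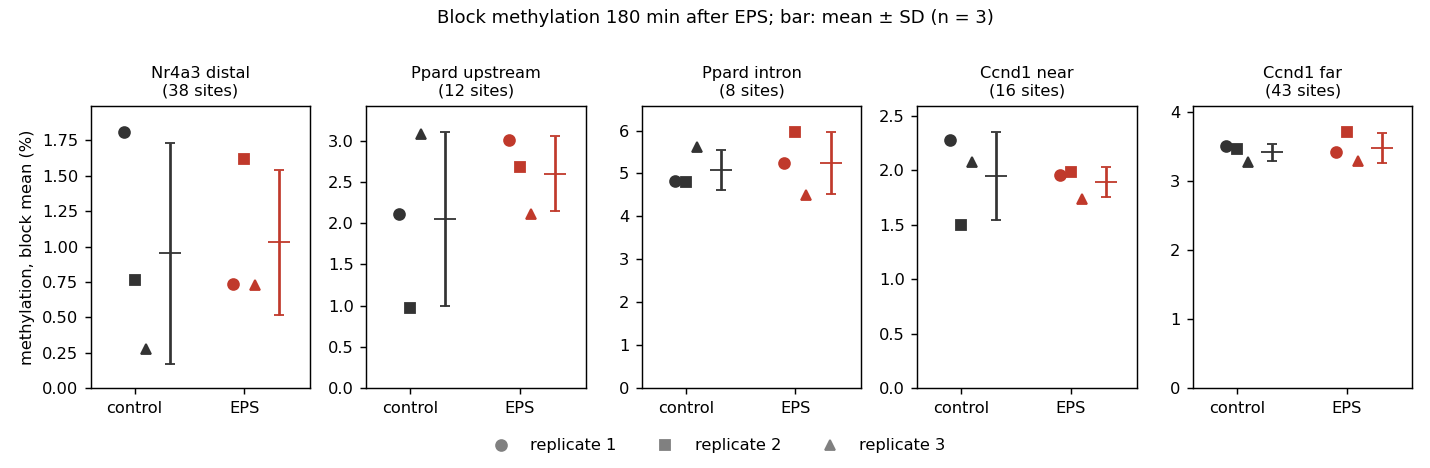
Block mean methylation (%) in each control and EPS sample at 180 min, one panel per block, with marker shape for replicate number and bars for mean ± SD (n = 3). EPS and control points overlap in every panel, and the distal Nr4a3 and Ppard upstream panels have the widest control bars (SD 0.784 and 1.05).

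The distal block of Nr4a3 had the lowest mean methylation of the 5 blocks in both groups, although its last cytosines reached 11.5% in single samples. Block methylation was 1.81%, 0.764% and 0.279% in control replicates 1 to 3. It was 0.736%, 1.62% and 0.729% in EPS replicates 1 to 3. Control replicates were the highest and the lowest of the 6, and the EPS values lay between them. The control mean was 0.952% ± 0.784 (SD, n = 3) and the EPS mean 1.03% ± 0.514 (SD, n = 3), a difference of 0.0775 points and a ratio of 1.08 (exact permutation p = 1). The limma difference was 0.39 on the log2 scale with a 95% interval from -2.35 to 3.14, the widest of the 5 blocks.

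The spread at Nr4a3 came from one end of the block. Of its 38 cytosines 22 lie between the primers of the amplicon and 16 outside them, and the latter held 81.0% of the summed methylation at 180 min. An amplicon made with these primers does not reach cytosines outside them, and the origin of the reads behind those values is not given in the sources used here. Between the primers, methylation was 0.329%, 0.312% and 0.329% in control and 0.304%, 0.342% and 0.338% in EPS. The highest and the lowest of these values were both EPS samples. All 22 cytosines had a higher EPS mean before any centring, yet the means, 0.323% ± 0.00978 (SD, n = 3) and 0.328% ± 0.0207 (SD, n = 3), were 0.0047 points apart (exact permutation p = 0.6). Outside the primers the means were 1.82% ± 1.86 in control and 1.99% ± 1.20 in EPS (SD, n = 3 each, exact permutation p = 1).

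Within those outer cytosines, the 6 from -2067 to -2050 bp, a stretch chosen after its values were seen and therefore not tested, stood at 8.98%, 3.01% and 0% in control and 2.56%, 8.00% and 2.29% in EPS. A single sample of each group was high, control replicate 1 and EPS replicate 2, and control replicate 3 was listed at 0 at all of them. Over the 18 control samples of the time course the same 6 cytosines ran from 0% to 75.0%. At -2067 bp, the cytosine with the largest difference of the block, control read 11.5%, 3.96% and 0% and EPS read 3.53%, 10.2% and 3.31% (difference 0.539 points, exact permutation p = 1). The 8 cytosines from -2121 to -2081 bp, likewise chosen after their values were seen, had stretch means of 0.882%, 0.433% and 0.338% in control and 0.650%, 0.674% and 0.721% in EPS. All 8 had a higher EPS mean, a ratio of 1.24 for the stretch, but control replicate 1 lay above all 3 EPS samples. By contrast, the 24 cytosines from -2326 to -2125 bp stayed between 0.308% and 0.344% in the 6 samples as stretch means.

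The proximal Nr4a3 block, closest to the TSS at 48045153 on chromosome 4, held no value above 0 at 180 min. All 23 listed cytosines were at 0 in control replicates 2 and 3 and in EPS replicates 1 to 3, and control replicate 1 had no value there. The same list stood at 0 in most samples of the time course: of the 31 samples with values, 2 had any above 0, both of them controls at other time points (highest 13.9%). Without coverage it cannot be said how small a methylation level these zeros could hide.

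Ppard had the largest block difference at 180 min, and it was smaller than the control SD. Its upstream cytosines averaged 2.11%, 0.975% and 3.08% in control replicates 1 to 3. They averaged 3.01%, 2.68% and 2.12% in EPS replicates 1 to 3. The highest and the lowest samples were again both controls. The means were 2.06% ± 1.05 (SD, n = 3) and 2.60% ± 0.452 (SD, n = 3), a ratio of 1.27 (exact permutation p = 0.6), with a limma log2 difference of 0.48 (95% interval -0.33 to 1.30). Control replicate 2, the lowest, carries much of the difference: without it the difference was 0.00506 points, and without control replicate 3 it was 1.06 points. The direction also depended on the summary: the median over the 12 cytosines gave -0.165 points and the mean of their log2(beta/(1 - beta)) gave -0.0098.

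The first and last 6 Ppard upstream cytosines differed in sign in the 6 samples as a whole. From -300 to -211 bp the 6 cytosines had means of 3.48% ± 2.16 in control and 4.82% ± 0.793 in EPS, with all 6 higher in EPS. From -194 to -127 bp the other 6 had means of 0.629% ± 0.478 and 0.379% ± 0.286, with all 6 lower in EPS (SD, n = 3 each). Groups overlapped in both parts, and since the boundary was placed after the values were seen neither part was tested. Without control replicate 2 the first difference was 0.389 points in place of 1.34, and without control replicate 3 it was 2.51. The second turned from -0.250 to 0.0258 points without control replicate 1, which read 1.18% there against 0.372% and 0.336% in the other controls. At -278 bp, where the difference was largest (1.90 points), control samples read 3.79%, 1.86% and 7.48% and EPS samples read 7.48%, 6.05% and 5.30%. Control replicate 3 and EPS replicate 1 were nearly equal there, while control replicates 1 and 2 lay below all EPS samples (exact permutation p = 0.3). Without control replicate 2 this difference was 0.641 points and without control replicate 3 it was 3.45 points.

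In the Ppard intron, methylation was higher than at any of the other blocks and the groups were close. Control samples read 4.83%, 4.79% and 5.62%, and EPS samples read 5.25%, 5.97% and 4.51%. EPS replicate 2 was the highest and EPS replicate 3 the lowest of the 6. The means were 5.08% ± 0.468 (SD, n = 3) and 5.24% ± 0.731 (SD, n = 3), 0.164 points apart (exact permutation p = 0.7), and the limma interval, -0.26 to 0.35 on the log2 scale, was among the narrow ones. The first and last listed cytosines of the block, at 706 and 852 bp, are both CHG positions, and the one at 706 bp lies within a primer, so its base in a read comes from the primer. The outermost CpG positions between the primers, named after their values were seen, read 3.46% ± 0.388 at 716 bp and 7.90% ± 1.01 at 844 bp in control. In EPS they read 3.73% ± 0.616 and 7.80% ± 1.12 (SD, n = 3 each).

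Ccnd1 showed the smallest differences relative to its level. The near block, the closer of its blocks to the TSS at 144939869 on chromosome 7, read 2.28%, 1.50% and 2.08% in control and 1.96%, 1.99% and 1.74% in EPS. All 3 EPS values fell inside the control range. The means were 1.95% ± 0.406 (SD, n = 3) and 1.89% ± 0.136 (SD, n = 3), a ratio of 0.971 (exact permutation p = 0.8), although 14 of its 16 cytosines had a lower EPS mean in percent (10 of 16 by the limma log2 difference). The limma difference was -0.02 with an interval from -0.89 to 0.85.

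The near block was lowest in its middle in most samples and rose toward its far end. At its first cytosine, 389 bp, control read 2.62%, 0.934% and 2.50% and EPS read 2.28%, 1.91% and 1.34%. The controls spanned the EPS values. At its last, 566 bp, the means were 4.21% ± 0.139 and 4.11% ± 0.511 (SD, n = 3 each). At 490 bp, inside the E box described below, they were 1.20% ± 0.241 and 1.22% ± 0.202 (exact permutation p = 0.9).

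The far Ccnd1 block varied least between samples on the log2 scale of the model. Control samples read 3.51%, 3.47% and 3.27%, and EPS samples read 3.43%, 3.72% and 3.30%. The means of 3.42% ± 0.126 (SD, n = 3) and 3.48% ± 0.215 (SD, n = 3) differed by 0.0652 points (exact permutation p = 0.8). The limma interval, -0.18 to 0.23 on the log2 scale, was the narrowest. Most of its level lay at 14 cytosines outside the primers, with the same uncertainty of origin as at Nr4a3, which held 87.5% of the summed methylation and averaged 9.18% ± 0.498 in control and 9.36% ± 0.522 in EPS. The 23 cytosines between the primers averaged 0.447% ± 0.0691 and 0.452% ± 0.0750 (SD, n = 3 each), and exact permutation p was 0.6 outside and 1 between the primers. The other 6 lie within a primer, where the base in a read comes from the primer, and were listed at means of 1.35% ± 0.143 and 1.38% ± 0.114 (SD, n = 3 each). The highest single level of the whole comparison among named cytosines was at 1260 bp, with 14.8%, 15.8% and 13.5% in control and 14.7%, 16.9% and 14.5% in EPS.

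**Figure D2:**
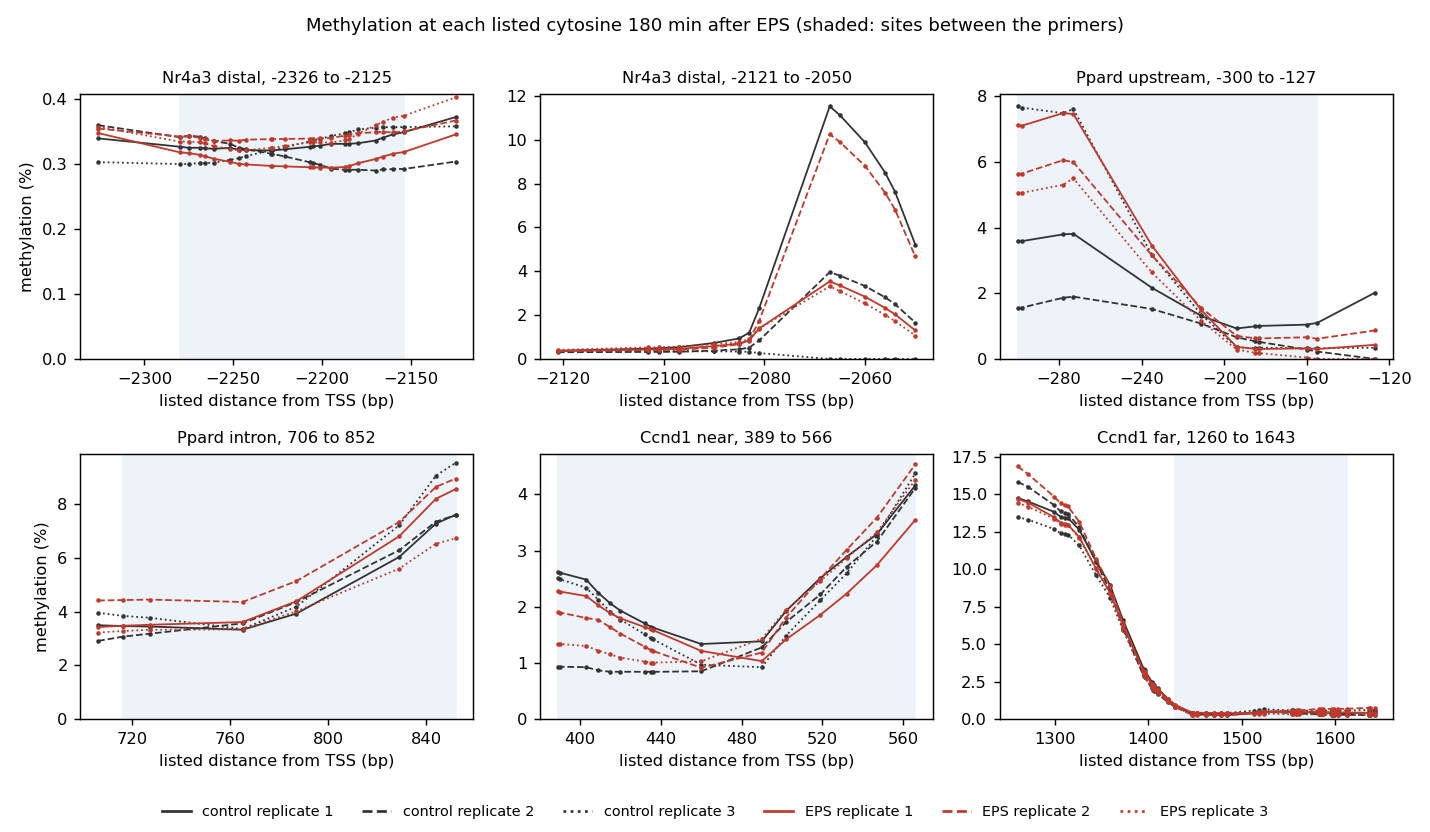
Methylation (%) at each complete cytosine against the listed distance from the TSS (bp), one line per sample, black for control and red for EPS, with the stretch between the primers shaded and the distal Nr4a3 block split at -2121 bp into panels with separate scales. Red and black lines interleave in each panel, the steep parts at Nr4a3 and far Ccnd1 lie at unshaded cytosines, and the first Ppard cytosines read from 1.55% to 7.69% among the 3 controls.

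The replicate spread differed between the groups without a common direction. The control SD was 2.98 times the EPS SD at the near Ccnd1 block, 2.33 times at the Ppard upstream block and 1.53 times at distal Nr4a3, but 0.641 times at the Ppard intron and 0.585 times at far Ccnd1. Against the 18 controls of all time points, the 3 EPS samples lay within the control range at distal Nr4a3 (0.256% to 12.3%), upstream Ppard (0.975% to 5.69%) and near Ccnd1 (0.730% to 4.24%). The upper end at distal Nr4a3 was a single control at 30 min, and the next highest was a control at 60 min (5.58%). Both were the controls with values above 0 at the proximal Nr4a3 block. EPS replicate 2 lay above the range of the 18 controls at the Ppard intron (3.89% to 5.75%) and at far Ccnd1 (2.88% to 3.67%). At far Ccnd1, EPS replicate 2 was the highest EPS sample at every other time point too. Its value at 60 min, 3.74%, also lay above the control range.

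Among single cytosines, 0 of 117 passed an adjusted p of 0.05 in limma at 180 min (0% called, adjusted over 702 tests in 6 time points), and 0 had an unadjusted p under 0.05. Over the 6 time points together 0.427% of the 702 tests had an unadjusted p under 0.05. By group means in percent, EPS was higher at 87 and lower at 30 of the 117 cytosines, and by the limma log2 difference it was higher at 91 and lower at 26. With each sample centred on its mean, 26 were higher and 91 lower in percent, and without control replicate 2 or EPS replicate 2 the higher ones numbered 47 and 43. With each replicate left out in turn, the number of higher ones ran from 43 to 99. All 38 cytosines of the distal Nr4a3 block were higher on both scales, but 8 of 38 after centring and 18 to 38 with a replicate left out. The smallest p was at Ppard -273 bp, where the log2 difference was 0.75 (95% interval -0.09 to 1.58, p = 0.0767, adjusted p = 1.00, n = 36 samples in the fit). All 117 intervals held 0, and their median width was 1.00 on the log2 scale. They were widest at the outer Nr4a3 cytosines, from -3.67 to 6.82 at -2067 bp, where replicates were far apart, and narrowest at inner Nr4a3 cytosines, from -0.17 to 0.17 at -2247 bp.

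**Figure D3:**
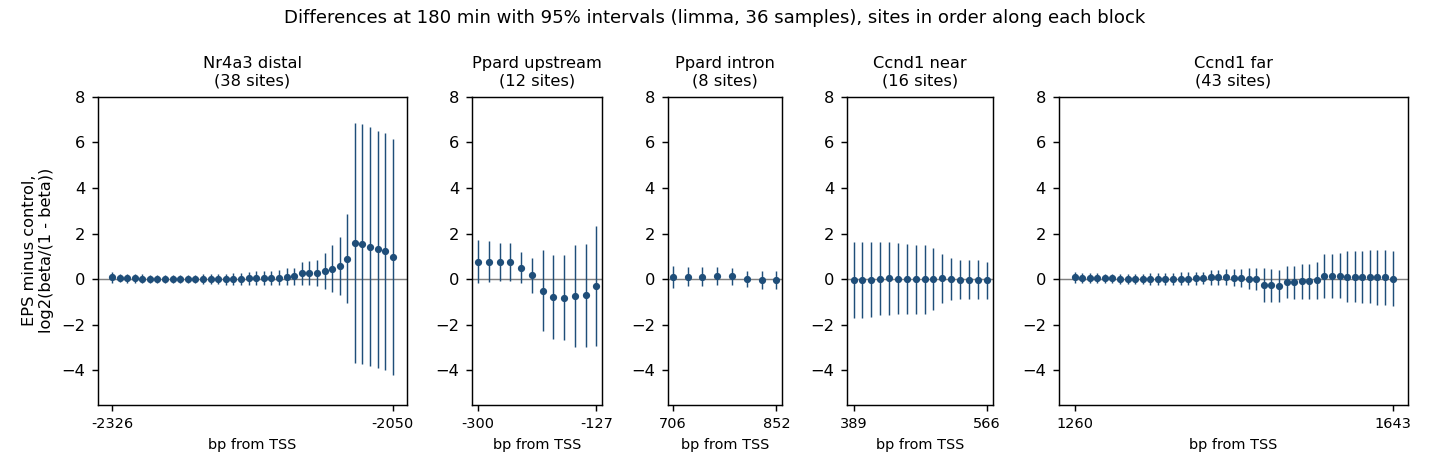
EPS minus control at 180 min for each of the 117 cytosines in order along its block, on the scale log2(beta/(1 - beta)), with the 95% interval from limma over 36 samples. All intervals cross 0, and those at the right end of the distal Nr4a3 panel reach past 6.

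No cytosine separated the groups at 180 min. A cytosine separates them when all 3 EPS values lie on the same side of all 3 control values. This held for 0 of 117 cytosines at 180 min (0%), against 3, 11, 6, 6 and 2 of 117 at 0, 30, 60, 120 and 240 min (28 of 585, 4.79%, and 3.99% of the 702 over all 6 time points). In limma, the count of cytosines with an unadjusted p under 0.05 was 0 at 0, 60, 180 and 240 min, 1 at 30 min and 2 at 120 min, and none passed adjustment at any time point. The counts are a description, because neighbouring cytosines are not independent and the difference between time points was not tested at this level.

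For block means the difference between time points was tested. In an exact permutation test with labels permuted within each time point, where the smallest p is 0.005, 0 of 25 comparisons of the 180 min difference with that of another time point had p under 0.05, and each adjusted p was at least 0.938. A single comparison at the smallest p would not have passed adjustment over 25. The smallest p, 0.085, was at upstream Ppard against 30 min: EPS minus control was 0.545 ± 0.662 points at 180 min and -1.89 ± 0.983 points at 30 min (difference ± SE, n = 3 each). There, at 30 min, control averaged 4.17% ± 1.63 and EPS 2.28% ± 0.508 (SD, n = 3 each). The same block at 120 min was the only one of the 30 block and time combinations in which groups did not overlap, with 1.89% ± 0.462 in control and 2.90% ± 0.177 in EPS (SD, n = 3 each, exact permutation p = 0.1, the smallest possible).

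**Figure D4:**
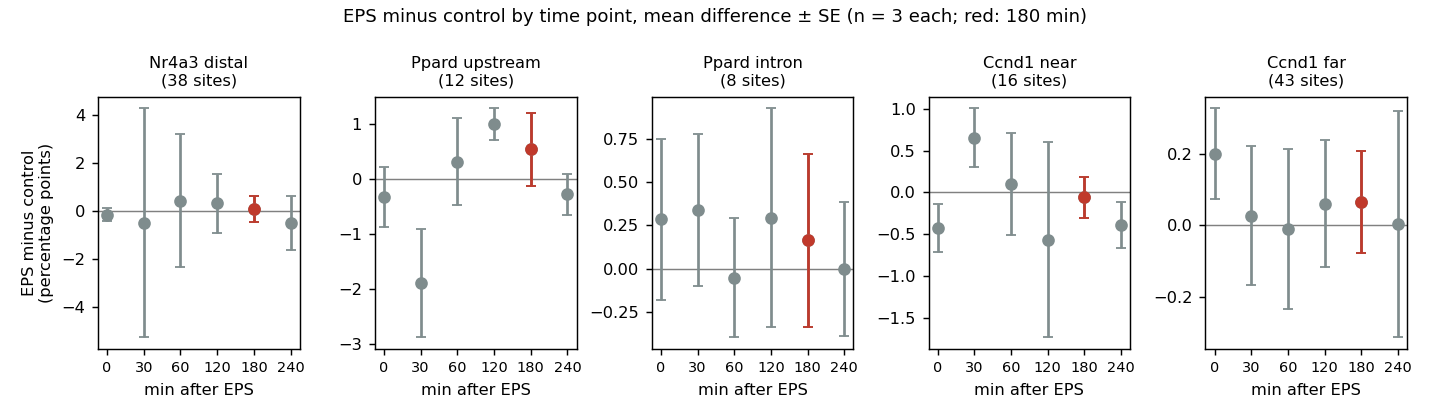
EPS minus control (percentage points, mean difference ± SE, n = 3 each) against minutes after EPS for the 5 blocks, with 180 min in red. The SE bar at 180 min crosses 0 in each panel, and only the Ppard upstream panel has a point below -1.

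No difference in response between blocks was detected. The log2 ratio of block means within a sample was compared between EPS and control for all 10 pairs of blocks. The largest shift was 0.50 between upstream Ppard and near Ccnd1, from -0.05 ± 0.59 in control to 0.44 ± 0.17 in EPS (SD, n = 3 each, exact permutation p = 0.3), and each adjusted p was 1 over the 10 pairs, though this test cannot go below 0.1 before adjustment.

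Short motifs in the blocks were read with the methylation of the CpG they contain. Searched on both strands were TGACGTCA (the cAMP response element), its shorter core CGTCA, the GC box GGGCGG that Sp factors bind, and the E box CACGTG, and a match to the first also counts for its core. The proximal Nr4a3 block held 3 CGTCA matches, with CpG cytosines listed at -76, -61 and -50 bp, and each was at 0 in the 5 samples with values. CGTCA occurs in 14.5% of 32851 RefSeq mouse promoter windows of that length. The distal Nr4a3 block held 1 CGTCA match at -2247 bp, methylated at 0.319% ± 0.0088 in control and 0.319% ± 0.0179 in EPS, and 1 GGGCGG match at -2195 bp, at 0.323% ± 0.0262 and 0.323% ± 0.0246 (SD, n = 3 each, exact permutation p = 1 for both). Of promoter windows of that length, 19.8% hold CGTCA and 34.5% hold GGGCGG. TGACGTCA matched in none of the blocks.

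At Ppard, the GGGCGG match with the cytosine at -160 bp was methylated at 1.04%, 0.287% and 0.322% in control and 0.323%, 0.660% and 0.0422% in EPS. Control replicate 1 was the highest and EPS replicate 3 the lowest (exact permutation p = 0.7), and 20.04% of promoter windows of that length hold the motif. The near Ccnd1 block held 1 CACGTG, a motif in 3.64% of windows of its length. The far Ccnd1 block held 2 GGGCGG matches, at 1519 bp and at 1554 to 1558 bp. The motif occurs in 35.7% of promoter windows of 300 bases, the longest available, against 384 bases in this block. At 1519 bp methylation was 0.470%, 0.447% and 0.620% in control and 0.447%, 0.445% and 0.367% in EPS. EPS replicates 2 and 3 lay below all 3 controls, and the mean difference of -0.0924 points had an exact permutation p of 0.2. At the other match, methylation at 1554 bp was 0.499%, 0.410% and 0.583% in control and 0.480%, 0.577% and 0.325% in EPS, with the groups interleaved (exact permutation p = 0.6). At 1558 bp the mean difference was -0.0246 points (exact permutation p = 0.8).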

How the data were processed

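DNA of C2C12 myotubes was bisulfite-converted, amplified with 6 primer pairs and sequenced. The submitters' processing notes name Trim Galore 0.3.7, cutadapt 1.4.2, Bismark and mm10. Values deposited by the authors are percent methylation per cytosine and sample, with no coverage, and no smoothing step is given in the sources used here. A deposited table of p-values per gene and time point, the authors' own comparison, was not used. The study describes 3 independent experiments, and p-values here measure the spread between those samples. The main tests were unpaired, so if replicate numbers mark the experiments, that spread also holds differences between experiments.

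Block means over cytosines with a value in all 36 samples were compared by two-sided exact permutation tests (Python 3.11.15, scipy 1.17.1). limma 3.58.1 in R 4.3.3 was fitted with 12 group means and 24 residual degrees of freedom to log2(beta/(1 - beta)), beta held 0.001 from 0 and 1, and p-values were adjusted by the Benjamini-Hochberg method. Tests were checked on simulated data. Sites named were, per block, the first, the last, those with the largest difference and the smallest limma p, and CpGs in a searched motif. Other stretches were named after their values were seen. The members and lists were chosen with earlier results of these data known. Amplicons were placed by matching primers to a bisulfite-converted genome. Sequences came from the RefSeq GRCm38 assembly and promoter windows from RefSeq, taking the first bases of each 300-base window. Same-numbered samples were checked for pairing over all complete cytosines together, with a mixed result, and the main tests did not pair them. Alternatives were other scales, medians, centring, all 18 controls, other beta limits, a replicate block and each replicate left out. Further ones fitted limma to cytosines with any number of values and to only the 6 samples of 180 min.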

Additional observations from a re-analysis of the deposited data

Results flagged for a closer look

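Around the Ppard TSS and into its first exon and intron (-1 to 252 bp), 31 listed cytosines lacked values in some samples. They entered no block mean and none of the main site tests, only an alternative limma fit of cytosines with any number of values. At 180 min, control replicates 1 and 2 and EPS replicate 1 were listed at 0 at each cytosine with a value there (22, 31 and 31 cytosines). EPS replicate 2 had values at 20 cytosines, of which 18 were above 0, with a mean of 5.87% and a highest value of 9.68%, above the controls with values. Control replicate 3 and EPS replicate 3 had no value there. Of the 11 samples of the time course with values there, 2 had any above 0, the other being EPS replicate 1 at 120 min (highest 8.95%). Coverage is unknown, and the difference was not tested outside the alternative fit, which called no site.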

How the results depend on the processing

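No site reached an adjusted p of 0.05 in limma under any alternative run. The comparisons of blocks, whose smallest p is 0.1, could not reach it under any setting, and those of time points could only with several at their smallest p, so their counts of 0 say nothing about stability. Without control replicate 3, 5 sites had an unadjusted p under 0.05 (smallest adjusted p 0.765). Of 40 alternatives that left out no replicate, 5 turned a block difference. Some of the 40 could not turn it: the replicate block returns the main value by construction. Sites with a value in all 6 samples were the same cytosines as in the main setting. Centring each sample on its mean moves every difference by -0.109 points, which by construction turns positive ones smaller than that. It gave -0.0311 at distal Nr4a3 and -0.0434 at far Ccnd1. All 18 controls as reference gave -1.05 at distal Nr4a3, and the upstream Ppard difference became -0.0098 as a mean of log2(beta/(1 - beta)) and -0.165 as a median. The cause of the latter 3 was not tested.

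With each replicate left out in turn, the difference in points ran from -0.259 to 0.508 at distal Nr4a3, 0.00506 to 1.06 at upstream Ppard, -0.200 to 0.531 at the Ppard intron, -0.283 to 0.107 at near Ccnd1 and -0.0533 to 0.157 at far Ccnd1, so that 4 of 5 blocks changed direction. It ran from -0.00222 to 0.0166 between and -0.625 to 1.20 outside the primers at distal Nr4a3, and from -0.0262 to 0.0462 between and -0.118 to 0.366 outside them at far Ccnd1. The limma log2 difference ran from -0.31 to 1.06 at distal Nr4a3, 0.013 to 0.86 at upstream Ppard, -0.061 to 0.15 at the Ppard intron, -0.21 to 0.10 at near Ccnd1 and -0.023 to 0.067 at far Ccnd1. The limma intervals also draw on the spread at other time points. From only the 6 samples of 180 min they were -1.58 to 2.36 at distal Nr4a3 and -0.70 to 1.66 at upstream Ppard. They were -0.34 to 0.43 at the Ppard intron, -0.51 to 0.46 at near Ccnd1 and -0.21 to 0.27 at far Ccnd1. With a replicate block the far Ccnd1 interval was -0.079 to 0.133.

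Chosen after seeing the data were leaving out replicates for the first and last 6 upstream Ppard cytosines (-0.402 to 0.0258 points for the last 6) and for counts of higher cytosines, and centring for those counts. Of 24 named sites 15 changed direction with a replicate left out, with ranges of -1.11 to 1.52 points at Nr4a3 -2050, -2.04 to 3.72 at -2067, -0.0146 to 0.0142 at -2195 and -0.0080 to 0.00981 at -2247. At Ppard the ranges were -0.746 to 0.263 at -127, -0.369 to 0.0370 at -160, -0.130 to 0.486 at 706 and -0.604 to 0.509 at 852. At Ccnd1 they were -0.719 to 0.124 at 389, -0.114 to 0.117 at 490, -0.312 to 0.182 at 566, -0.116 to 1.22 at 1260, -0.0951 to 0.0308 at 1554, -0.0830 to 0.0438 at 1558 and -0.115 to 0.132 at 1643. The other 9 kept their direction over wide ranges: 0.00363 to 0.0321 at Nr4a3 -2326, 0.0305 to 0.112 at -2103, 0.297 to 3.37 at Ppard -300, 0.641 to 3.45 at -278, 0.605 to 3.46 at -273, 0.0617 to 0.572 at 765, 0.0436 to 0.607 at 787, -0.125 to -0.0386 at Ccnd1 1519 and -0.139 to -0.0492 at 1524. The same shift from centring turned Nr4a3 -2326 (-0.0893), -2050 (-0.0544), -2103 (-0.0398), -2195 (-0.108) and -2247 (-0.108), and Ccnd1 490 (-0.0871) and 1643 (-0.0846). All 18 controls turned Nr4a3 -2050 (-6.93) and -2067 (-6.68), Ppard 852 (0.473) and Ccnd1 566 (0.160), 1554 (0.0325) and 1558 (0.0444).

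Same-numbered samples deviated together (r over 0.1) in 9 of 18 pairs, and the main tests did not pair them. These correlations ran over all 117 complete cytosines at once, so they cannot exclude pairing at a single block. At far Ccnd1, replicate 3 was the lowest sample of each group in the time course. A replicate block changed the limma SE from 0.0998 to 0.0491 at far Ccnd1 and from 0.422 to 0.265 at near Ccnd1. It went from 1.33 to 1.39 at distal Nr4a3, 0.396 to 0.433 at upstream Ppard and 0.147 to 0.143 at the Ppard intron. One control at 0 min carries number 3 in its title and 2 in its replicate field, and the title was used. The pair correlations at 0 min and the blocked fit over all samples depend on this. A replicate block left the count of called sites at 0. It also left the block differences as they were (0.0775 points at distal Nr4a3, 0.545 at upstream Ppard), which is fixed by construction, since each group holds the same numbers. Coverage minimums could not be tried without coverage.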
